A study of Mus musculus with 2 samples.

Results

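The genes described here are 10 genes used as markers of fibro-adipogenic progenitors and fibroblasts, the connective tissue cells that lie between muscle fibres. They are Pdgfra, Ly6a and Cd34, which encode surface proteins, Tcf21 and Osr1, which encode transcription factors, Dcn, Lum, Dpt and Fbn1, which encode matrix proteins, and Gsn, which encodes an actin-severing protein. They were taken from a list of names, with earlier results of these data known, and all 10 were found among 21911 protein-coding genes of GENCODE release M21. Accessible chromatin was mapped by DNase-seq, which sequences the ends left by the nuclease DNase I where it can reach DNA in nuclei. The nuclei came from whole gastrocnemius, the large calf muscle, of female mice of strain B6CASTF1/J aged 2 months. This strain is the F1 hybrid of C57BL/6J and CAST/EiJ mice. The study holds 1 group with 2 libraries, numbered by the labels as biological replicates 1 and 2. It has no second tissue, genotype or treatment, so no contrast between groups can be tested. The labels describe the females with different numbers but give both biosamples the same donor identifier, so whether the libraries came from separate animals is not settled.

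The libraries differed greatly in the length of their peak lists. Replicate 1 had 66984 peaks and replicate 2 had 258342, which is 3.86 times as many, and sequencing depth is unknown. The authors' signal per peak has no stated scale. Peaks are therefore described by their place in their own library's list, as the percentage of that list at least as strong, so that 2% is a strong peak and 80% a weak one. Whole muscle holds many cell types. In such tissue fewer nuclei of a type and less accessible DNA per nucleus cannot be told apart, and no peak can be assigned to a cell type. The tissue label was checked against 12 muscle fibre markers. All 12 had promoter peaks in each library, against 60.0% of all protein-coding genes. Their median was 15.5 shared peaks per gene, against 2 over all genes. All 10 genes of PDGF signalling counted below also had promoter peaks in each library, so that count alone does not check the tissue.

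Fibro-adipogenic progenitors are mesenchymal cells of the muscle interstitium. They are usually sorted by PDGF receptor alpha and by Sca-1, the product of Ly6a, and they support regenerating muscle stem cells but also give rise to fibrous tissue and fat when muscle is diseased. Fibroblasts lay down the collagen-rich matrix around fibres, in which decorin, lumican, dermatopontin and fibrillin-1 bind or organise collagen fibrils and elastic microfibrils. Accessible chromatin marks promoters and also distal elements such as enhancers, which can lie in introns or in the flanks of a gene. Within an accessible site a bound protein can shield a few bases from the nuclease, which leaves a footprint.

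A gene window was the gene body plus 10 kb either side. A peak was a promoter peak when its midpoint lay within 1 kb of an annotated start of the gene, and a distal peak when it lay within 1 kb of no annotated start of any gene. A promoter peak stood in both libraries at 8 of the 10 genes, against 60.0% of all protein-coding genes. The genes without one in both were Ly6a and Tcf21. With the shorter of the deposited peak lists the count was 5 of 10, and Dpt, Lum and Osr1 lost the call. In replicate 1 alone 8 of the 10 had a promoter peak, against 60.6% of all genes. In replicate 2 alone 9 did, all but Ly6a, against 70.8% of all genes. A shared peak, a merged run of overlapping peaks of both libraries, stood in the windows of 8 of the 10 genes, against 71.5% of all genes. A distal shared peak stood in 6 of the 10 windows, against 38.3% of all genes. Windows of the 10 genes were somewhat longer, with a median of 45.04 kb, against 37.4 kb over all genes. These counts cover few genes and were not tested, so they are read only as a description.

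**Figure D1:**
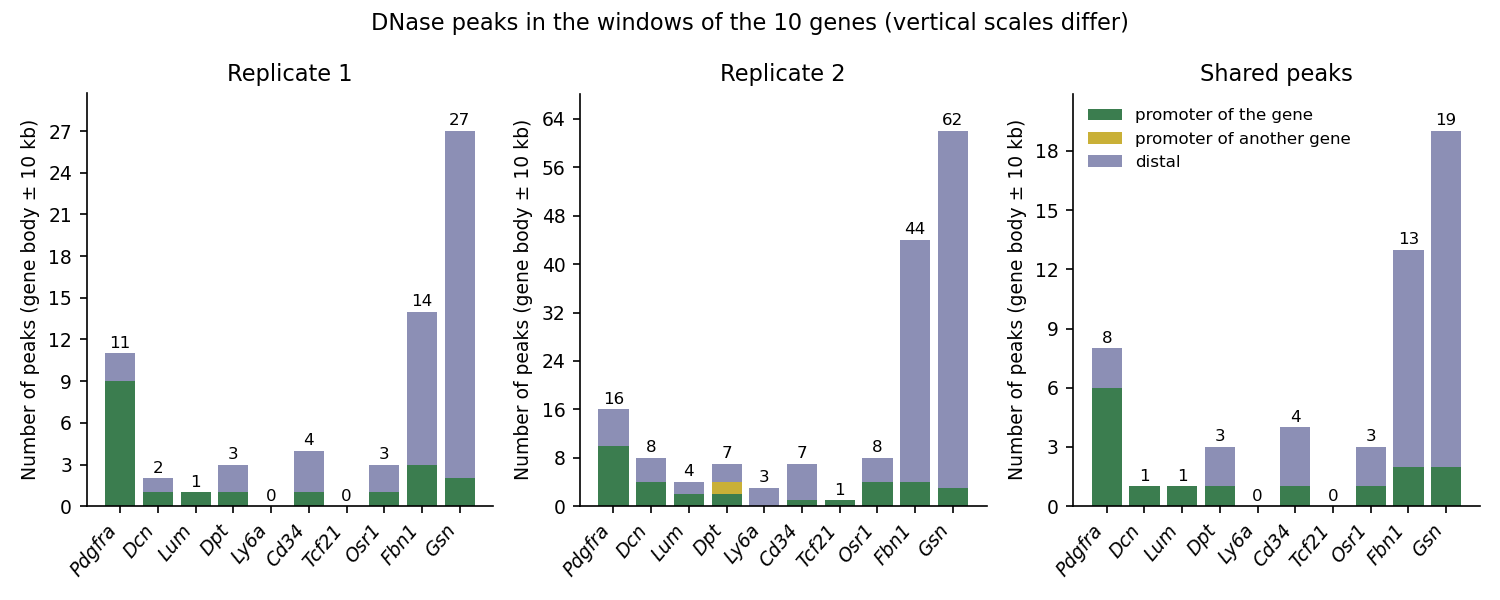
Number of DNase peaks (vertical axis) in the gene body plus 10 kb of each of the 10 genes (horizontal axis), for replicate 1, replicate 2 and the peaks shared by both. Bars are stacked by position relative to annotated starts, and the number over a bar is its total. Gsn with 27, 62 and 19 peaks and Fbn1 with 14, 44 and 13 stand above the rest, and Ly6a and Tcf21 have no peak in replicate 1.

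In all, the 10 windows held 65 peaks of replicate 1, 160 of replicate 2 and 52 shared peaks. Peaks of the same list can overlap each other, as some did at Pdgfra, Fbn1 and Gsn. Counts per library can therefore include a site more than once. Gsn and Fbn1 together held 32 of the 52 shared peaks (61.5%), so sums over the 10 genes mostly describe these 2 genes. Per gene the median was 3 peaks in replicate 1, 7.5 in replicate 2 and 3 shared, against 2, 5 and 2 over all protein-coding genes. Per 10 kb of window the median was 0.601 shared peaks, against 0.325 over all genes. The densest window was that of Gsn with 2.66 shared peaks per 10 kb, followed by Pdgfra with 1.21, Osr1 with 0.956 and Cd34 with 0.942. Dpt had 0.630, Fbn1 0.572, Lum 0.363 and Dcn 0.171 per 10 kb. The long Fbn1 window of 227 kb thus held many peaks at a density that ranked in the middle of the 10 genes, against 0.325 over all genes.

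Most shared peaks of these genes were distal. Of the 52, 15 were promoter peaks and 37 (71.2%) were distal, against a distal share of 40.6% over the windows of all genes, where a peak in overlapping windows counts for each gene. Of these 37, 27 lay in introns, 6 in the upstream flank, 4 in the downstream flank and 0 in exons. The share rests on 2 genes, since without Gsn 20 of 33 shared peaks were distal (60.6%), and without Gsn and Fbn1 9 of 20 were (45%). By library the distal share was 70.8% in replicate 1 and 79.4% in replicate 2, against 45.1% and 68.5% over the windows of all genes.

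Recurrence between the libraries was one-sided in these windows. The list of replicate 2 is 3.86 times as long, and overlap shares over all peaks were not counted. Over the genome the 66984 peaks of replicate 1 and 258342 of replicate 2 gave 49160 shared peaks. The counts below are therefore not read as a trait of these genes. Of the 65 peaks of replicate 1, 59 (90.8%) overlapped a peak of replicate 2. Of the 160 peaks of replicate 2, also 59 (36.9%) overlapped a peak of replicate 1. The 101 peaks of replicate 2 without such an overlap were weaker, with a median place of 35.2% in its list, against 11.3% for the overlapping ones. In replicate 1 the 6 peaks without an overlap had a median place of 75.6%, against 47.4%. The Pdgfra peak among these 6 lies inside a wider peak of the same list that does overlap. All 52 shared peaks stood higher in the list of replicate 2 than in that of replicate 1, in percent of the list. The list of replicate 2 is the longer one. Over all shared peaks of the genome the median places were 38.7% in replicate 1 and 10.5% in replicate 2. A higher place in replicate 2 is thus not particular to these genes.

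**Figure D2:**
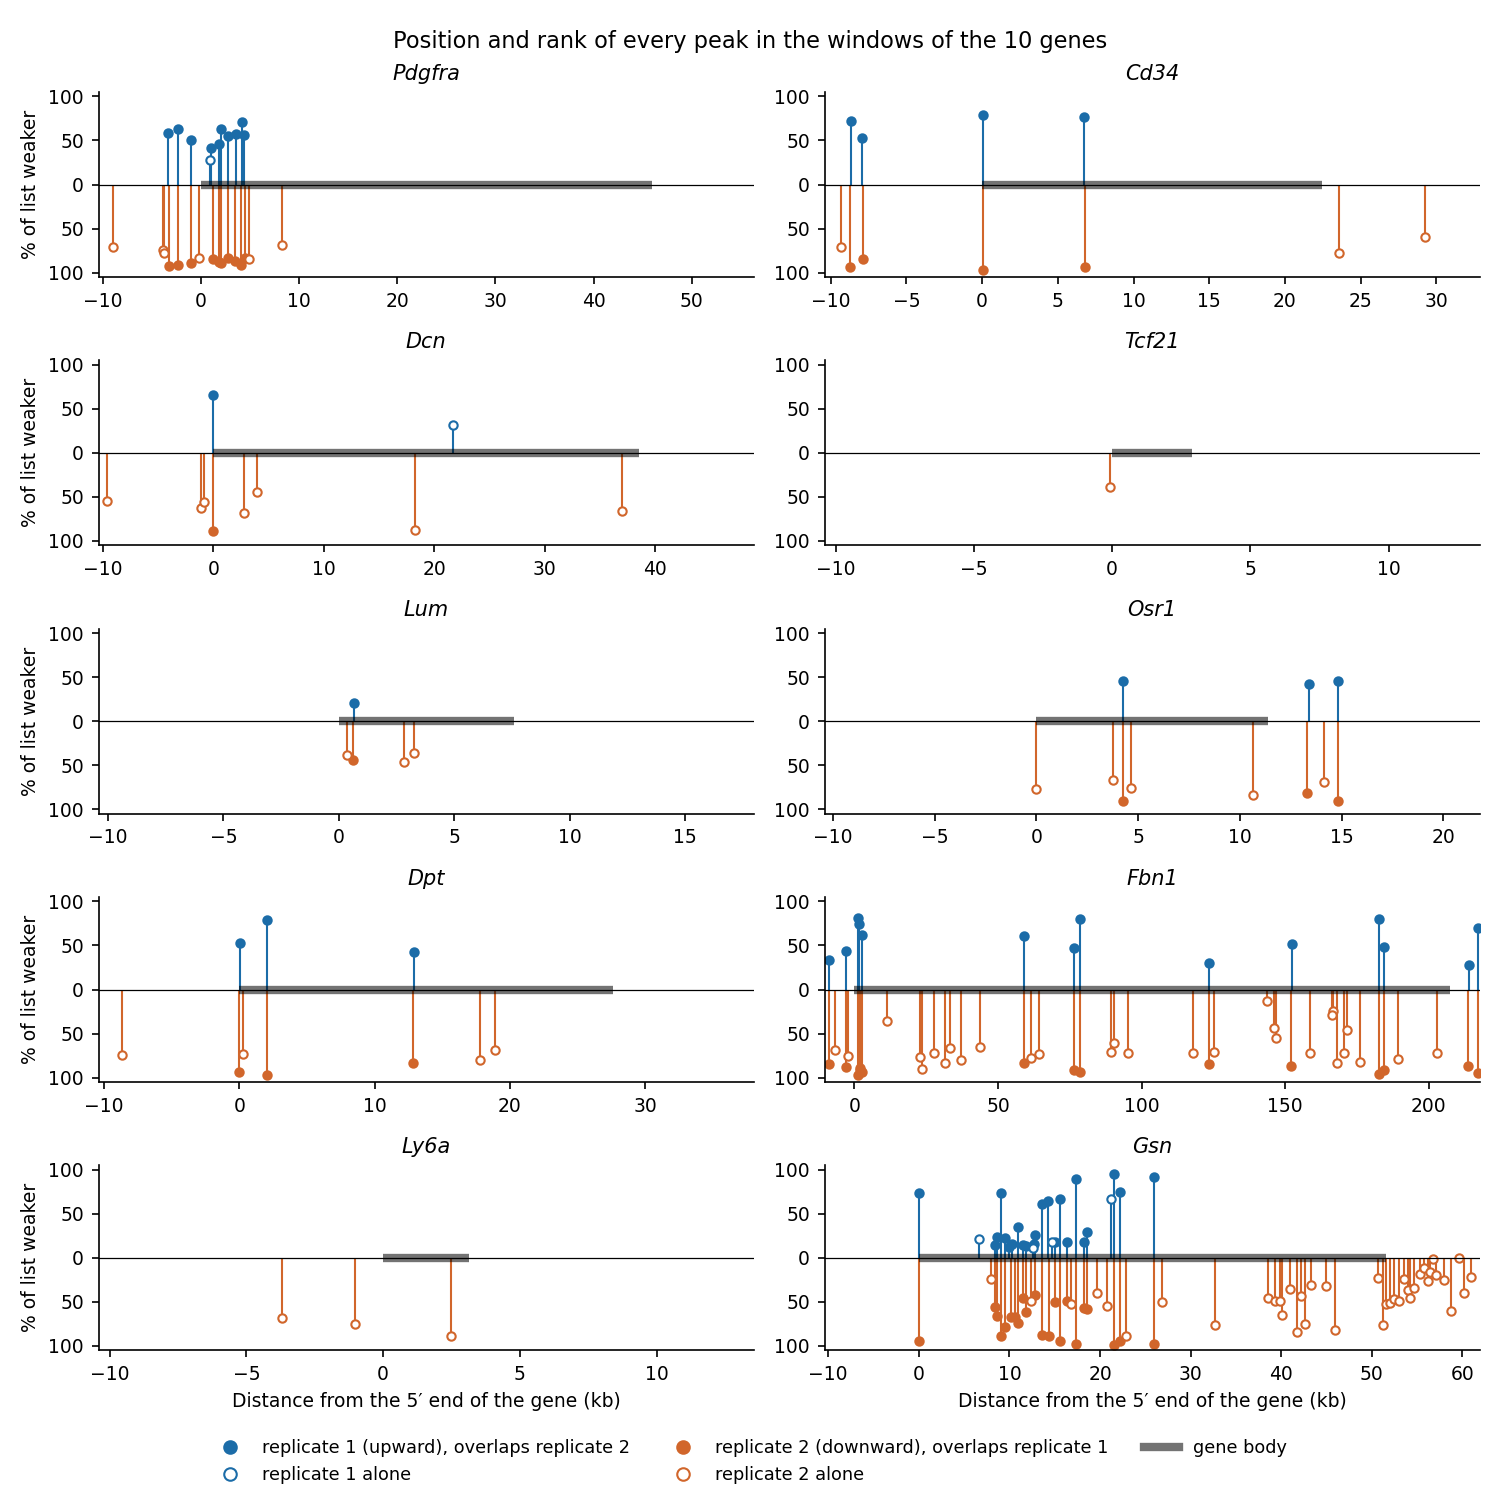
Every peak in the 10 windows by distance in kb from the 5′ end of the gene (horizontal axis, positive in the direction of transcription) and by the percentage of its library's list that is weaker (vertical axis, upward for replicate 1 and downward for replicate 2). Filled points overlap a peak of the other library, open points do not, and the grey bar is the gene body. Peaks of Pdgfra gather around its 5′ end, the shared peaks of Gsn run through the first part of the gene, and those of Fbn1 are spread over the whole window.

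Among the surface proteins, Pdgfra encodes the receptor tyrosine kinase for PDGF ligands. The gene lies on chromosome 5 from 75152292 to 75198215 on the plus strand (mm10) and has 9 annotated starts. Its window held 11 peaks in replicate 1, 16 in replicate 2 and 8 shared peaks, all of them near the 5′ end. Relative to that end the shared peaks lay at −3.31, −2.28, −0.97, 1.17, 2.09, 2.79, 3.54 and 4.14 kb. No peak of either library lay beyond 8.28 kb, which leaves the last 47.6 kb of the window without one. The 6 promoter peaks among the 8 owe their class largely to internal annotated starts in and around intron 1. No shared peak covered the annotated 5′ end itself, where replicate 2 alone had a peak at −191 bp that stood at 16.3% of its list. RefSeq places its promoter start 41 bp from the nearest GENCODE start, and that base too lay in no shared peak.

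The 8 shared Pdgfra peaks were of middling strength in replicate 1. They ranged from 29.0% to 58.4% of the list in replicate 1 and from 7.07% to 16.5% in replicate 2. The best by mean place was the peak in intron 1 at 4.14 kb, which is 660 bp wide and stood at 29.0% and 8.85%. A stretch of 300 of its bases is shown because it is the shared site of the receptor gene with the best mean place. In this and the later sequences, read 5′ to 3′ on the strand of the gene, capitals mark bases inside footprints of both libraries. The letters are those of the reference genome, C57BL/6J, and the CAST/EiJ allele may differ.
Pdgfra intron 1, GRCm38 chr5:75156350-75156649, plus strand: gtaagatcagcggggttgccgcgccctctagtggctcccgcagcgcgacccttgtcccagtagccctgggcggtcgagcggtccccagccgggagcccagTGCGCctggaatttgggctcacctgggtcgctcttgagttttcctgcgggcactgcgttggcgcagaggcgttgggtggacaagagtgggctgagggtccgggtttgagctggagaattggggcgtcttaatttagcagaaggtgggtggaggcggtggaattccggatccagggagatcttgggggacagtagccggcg
This stretch held 22 CpG dinucleotides and 64.3% G and C, and the bases footprinted in both libraries numbered 5. Over the whole window replicate 1 had 26 footprints and replicate 2 had 32, of which 7 and 7 overlapped one of the other library.

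Cd34 encodes a sialomucin carried by fibro-adipogenic progenitors and also by endothelial cells and other progenitors. Cd34 lies on chromosome 1 from 194938819 to 194961279 on the plus strand. The window held 4 peaks in replicate 1, 7 in replicate 2 and 4 shared peaks, so every peak of replicate 1 recurred. The promoter peak, 6 bp from a start, stood at 21.3% in replicate 1 and at 2.88% in replicate 2. Distal shared peaks lay in the upstream flank at −8.70 kb (27.4% and 6.15%) and −7.90 kb (47.1% and 15.5%), and in intron 1 at 6.76 kb (23.6% and 6.11%). The intron 1 site thus ranked close behind the promoter in replicate 1 and further behind it in replicate 2. Its sequence is shown as the strongest shared Cd34 site outside untranslated exons.
Cd34 intron 1, GRCm38 chr1:194945481-194945700, plus strand: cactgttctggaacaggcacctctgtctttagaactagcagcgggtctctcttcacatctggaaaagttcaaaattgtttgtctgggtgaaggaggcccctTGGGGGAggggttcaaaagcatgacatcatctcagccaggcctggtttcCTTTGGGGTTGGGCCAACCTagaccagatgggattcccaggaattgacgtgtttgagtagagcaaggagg
The longest run of capitals belongs to a footprint of 20 bp in replicate 1 and 25 bp in replicate 2, the widest Cd34 footprint of each library. In the Cd34 window 7 of 12 footprints of replicate 1 and 7 of 15 of replicate 2 overlapped one of the other library, the highest shares among the 10 genes apart from the 3 of 3 footprints of replicate 1 at Dpt.

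Ly6a encodes Sca-1, a surface protein anchored by a lipid. It lies on chromosome 15 from 74994877 to 74998031 on the minus strand. Its window held 0 peaks in replicate 1 and 3 in replicate 2. The strongest of these stood at 10.8% and lay in intron 3, at 2.48 kb from the 5′ end. The others lay upstream at −1.04 kb (24.3%), just outside the limit of a promoter peak, and at −3.68 kb (31.2%). The nearest shared peak to an annotated start of Ly6a was 29.9 kb away. Ly6a thus stands apart from Pdgfra and Cd34 in having no site seen in both libraries. It belongs to a cluster of closely related genes, and the treatment of reads that match several of them was not tested. Its promoter was also the poorest in CpG, with an observed over expected ratio of 0.0705, against a median of 0.553 over all genes.

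Among the transcription factors, Osr1 encodes a zinc finger protein of developing connective tissue that also marks embryonic fibro-adipogenic progenitors. Osr1 lies on chromosome 12 from 9570116 to 9581500 on the plus strand. The window held 3 peaks in replicate 1 and 8 in replicate 2, and all 3 of replicate 1 recurred. The shared promoter peak lay 55 bp before the internal second start, 4.27 kb into the gene, and stood at 53.8% and 8.90%. At the 5′ end itself only replicate 2 had a peak, at −2 bp (22.9%). The distal shared peaks lay downstream of the gene, at 13.4 kb (57.4% and 17.9%) and 14.8 kb (54.3% and 9.54%). All 3 sites stood in the weaker part of the list of replicate 1. None remained when peaks had to overlap reciprocally by at least 50%, or with the shorter lists or the stronger 50% of each list. The promoter site is shown up to the second start's untranslated exon.
Osr1 promoter of the second start, GRCm38 chr12:9574281-9574440, plus strand: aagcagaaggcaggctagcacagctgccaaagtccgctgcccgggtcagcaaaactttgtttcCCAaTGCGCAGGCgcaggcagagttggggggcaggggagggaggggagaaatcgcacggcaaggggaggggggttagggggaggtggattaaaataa
The letters CCAAT touch the bases footprinted in both libraries there.

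Tcf21 encodes a basic helix-loop-helix factor of fibroblast and visceral mesenchyme lineages. It lies on chromosome 10 from 22817281 to 22820174 on the minus strand. Its window held 0 peaks in replicate 1 and 1 in replicate 2, at −90 bp from the start, 60 bp wide and at 61.5% of the list. The nearest shared peak was 67.6 kb from a start. The 2 transcription factors therefore differed, with 3 shared peaks at Osr1 and 0 at Tcf21. The CpG ratio at the 5′ end was nearly the same (0.470 for Osr1 and 0.469 for Tcf21), but no shared Osr1 peak lay at that end.

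Among the matrix genes, Dcn encodes decorin and Lum encodes lumican, small leucine-rich proteoglycans that bind collagen fibrils. They are neighbours on chromosome 10, with Dcn from 97479609 to 97518143 and Lum from 97565128 to 97572703, both on the plus strand. Each had 1 shared peak, at its promoter. That of Dcn lay at −48 bp and stood at 33.8% in replicate 1 and 11.0% in replicate 2. That of Lum lay at 645 bp, inside the gene, and stood at 78.8% and 56.0%, the weakest promoter peak that both libraries held among the 10 genes. Outside these sites Dcn had 1 further peak in replicate 1 and 7 in replicate 2, none of which recurred. The strongest of them lay in intron 3 at 18.2 kb (11.96% of replicate 2).

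Dpt encodes dermatopontin, which binds decorin and collagen. It lies on chromosome 1 from 164796644 to 164824266 on the plus strand. The window held 3 peaks in replicate 1, all shared, and 7 in replicate 2. The promoter peak lay 15 bp from the start and stood at 47.4% and 6.46%. The strongest shared peak was not the promoter but a site in intron 1 at 2.01 kb, which stood at 20.9% and 3.40%. Another lay in intron 2 at 12.9 kb (57.0% and 17.0%). Dpt and Gsn were the 2 genes of the 8 whose best shared peak was distal. In replicate 2 alone, further peaks at 17.8 and 18.9 kb lay within 1 kb of starts of Gm32569, another gene inside the window. The intron 1 sequence is shown as the shared Dpt site with the best mean place.
Dpt intron 1, GRCm38 chr1:164798521-164798800, plus strand: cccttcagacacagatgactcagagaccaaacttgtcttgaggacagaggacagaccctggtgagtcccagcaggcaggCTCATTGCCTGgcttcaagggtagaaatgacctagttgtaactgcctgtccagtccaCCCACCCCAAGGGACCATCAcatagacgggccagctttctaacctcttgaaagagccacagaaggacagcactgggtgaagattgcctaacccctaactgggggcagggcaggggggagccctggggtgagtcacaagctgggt
Here both footprints of replicate 1 recurred almost base for base in replicate 2, at 11 and 12 bp and at 20 and 21 bp. The 31 bases footprinted in replicate 1 were all footprinted in replicate 2 as well. The AP-1 letters occur in this stretch outside the footprinted bases.

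Fbn1 encodes fibrillin-1, the main protein of elastic microfibrils. It lies on chromosome 2 from 125300594 to 125507993 on the minus strand. The window held 14 peaks in replicate 1, all of which overlapped a peak of replicate 2, 44 in replicate 2 and 13 shared peaks. The promoter peaks lay at 1.34 kb (18.8% and 3.05%) and 2.47 kb (38.2% and 6.20%) from the 5′ end, near internal starts. The first of them was 940 bp wide and merged 2 peaks of replicate 1 with 3 of replicate 2. Of the 11 distal shared peaks, 7 lay in introns and 4 in the flanks. Those in introns stood in intron 5 at 59.0, 76.3 and 78.7 kb, in intron 12 at 123 kb, in intron 31 at 152 kb, in intron 48 at 183 kb and in intron 49 at 184 kb. By mean place the best distal sites were those in intron 48 (20.2% and 3.68%), in intron 5 at 78.7 kb (20.1% and 6.48%) and in the downstream flank at 217 kb (30.3% and 5.51%). The remaining 29 peaks of replicate 2 overlapped no peak of replicate 1 and had a median place of 28.0%. The intron 48 sequence is shown as the best distal site of this gene.
Fbn1 intron 48, GRCm38 chr2:125325181-125325420, minus strand: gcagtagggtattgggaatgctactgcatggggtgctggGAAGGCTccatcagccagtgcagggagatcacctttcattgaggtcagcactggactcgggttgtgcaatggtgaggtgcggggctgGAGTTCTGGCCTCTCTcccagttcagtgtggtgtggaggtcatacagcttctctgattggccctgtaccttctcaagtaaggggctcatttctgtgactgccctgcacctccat
It held 2 footprints in each library, and 23 bases lay in footprints of both.

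Gsn encodes gelsolin, which severs and caps actin filaments and also circulates as a secreted form. It is made by many cell types, muscle fibres among them. The gene spans chromosome 2 from 35256380 to 35307892 on the plus strand and has 7 annotated starts. The window held 27 peaks in replicate 1, 62 in replicate 2 and 19 shared peaks, the most among the 10 genes in each count. The first promoter peak lay at −14 bp and stood at 26.2% and 5.12%. The second, at 25.9 kb and 54 bp before an internal start, stood at 8.73% and 2.37%, the best-placed promoter peak of the 10 genes in both libraries. Both promoter peaks were thus present in both libraries, and the internal one ranked higher.

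Between them ran 17 distal shared peaks over 14.0 kb of introns 1 and 2, from 8.63 to 22.2 kb from the 5′ end. The strongest, at 21.5 kb in intron 2, stood at 4.88% in replicate 1 and 1.31% in replicate 2, the best place of any peak in the 10 windows. The next, at 17.4 kb, stood at 10.9% and 2.34%. Most of the run was weak, since 10 of the 17 lay below the middle of the list of replicate 1 and 3 below that of replicate 2, and 7 lay above the middle of both. RefSeq places a further Gsn start at 35266744, 10295 bp from the nearest GENCODE start. One of the weaker peaks, 1250 bp wide at 11.0 kb, covers that start. The midpoint of the shared peak at 9.5 kb also lies within 1 kb of that start. Both distal peaks are thus promoter peaks in the other annotation. Downstream of the second promoter the libraries parted. Beyond it replicate 1 had 0 peaks in the gene body and 0 in the downstream flank, whereas replicate 2 had 15 and 19. The downstream flank peaks of replicate 2 were weak, with a median place of 73.3% and none above 40.0%. The sequence of the strongest site is shown because no other site of these genes ranked as high.
Gsn intron 2, GRCm38 chr2:35277761-35278000, plus strand: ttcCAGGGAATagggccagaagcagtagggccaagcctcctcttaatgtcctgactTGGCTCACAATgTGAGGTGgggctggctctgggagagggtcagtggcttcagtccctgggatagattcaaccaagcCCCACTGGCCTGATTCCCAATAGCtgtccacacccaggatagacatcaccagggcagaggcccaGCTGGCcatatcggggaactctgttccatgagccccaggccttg
It held 5 footprints in replicate 1 and 7 in replicate 2, and 56 of the 57 bases footprinted in replicate 1 were footprinted in replicate 2 too. The letters of the CCAAT box and of the E-box touch these bases.

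**Figure D3:**
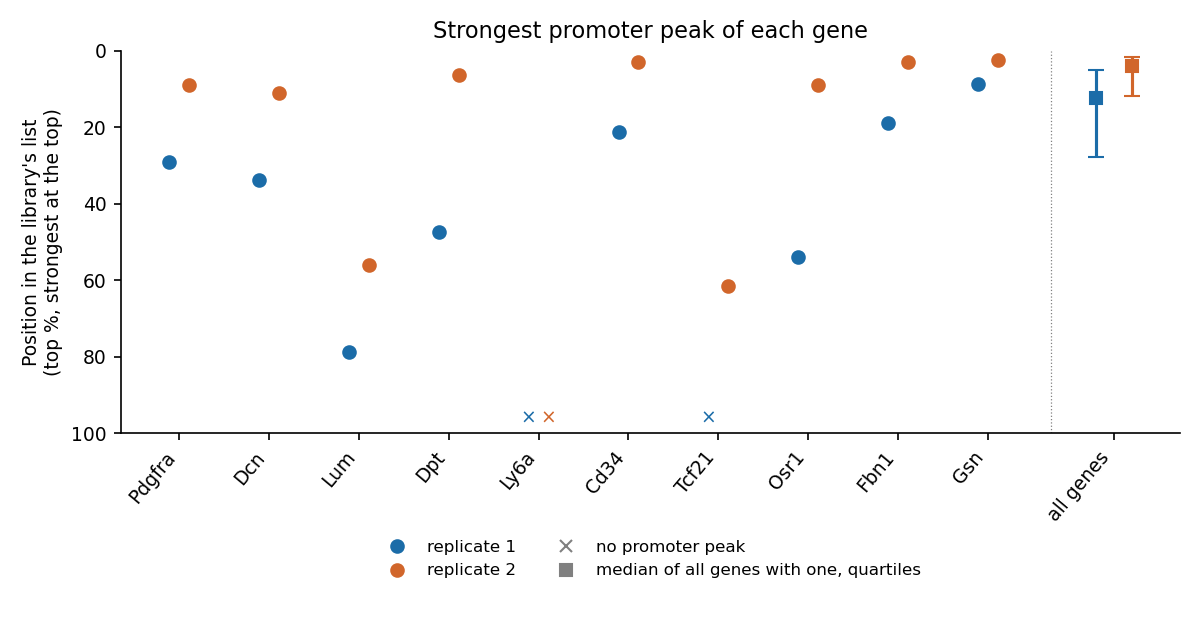
Place of the strongest promoter peak of each of the 10 genes in the list of replicate 1 (blue) and replicate 2 (orange), in percent of the list, with the strongest at the top of the vertical axis. Crosses mark genes with no promoter peak in that library, and the squares at the right give the median and quartiles over all genes with one. Gsn stands highest in both libraries, and Lum and Tcf21 lowest among those with a peak.

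Promoter peaks of the 10 genes, where present, were mostly weaker than the typical promoter peak. The strongest promoter peak had a median place of 31.4% over the 8 genes with one in replicate 1, against 12.3% over the 13289 genes with one. In replicate 2 the median was 8.85% over 9 genes, against 3.88% over 15517 genes. Only Gsn stood above the median of all genes in replicate 1, and Gsn, Cd34 and Fbn1 did in replicate 2. Genes without a promoter peak have no place, so these medians describe the genes with one and not all 10. The 52 shared peaks were also set beside all shared peaks of the genome. In replicate 1, 22 of the 52 ranked better than the genome median, and in replicate 2, 23 did. The 52 shared peaks had median places of 45.8% in replicate 1 and 10.9% in replicate 2, against 38.7% and 10.5% over all 49160 shared peaks.

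The cut rate gave a second reading of the promoters that does not rest on peak calls. The authors listed short segments whose rate of DNase cuts passed a false discovery rate of 0.05, and these summed to 22.1 Mb for replicate 1, against 71.3 Mb for replicate 2. Within 1 kb of its annotated starts Fbn1 had 456 and 485 bp of such segments per kb, and Pdgfra had 422 and 350. Cd34 had 185 and 216 bp and Gsn 166 and 262 bp. Dpt had 101 and 279 bp, Dcn 76.8 and 233 bp, Lum 69.0 and 206 bp and Osr1 42.0 and 228 bp. Ly6a had 0 and 19.6 bp and Tcf21 0 and 29.8 bp. The order of the genes thus depends on the measure. In each library Pdgfra is above Gsn and Cd34 by covered bases and below both by promoter place. Covered bases exceeded the median of all genes, 81.2 bp per kb in replicate 1 and 138 bp in replicate 2, for 5 and 8 of the 10 genes. Over the whole window Gsn stood out, with 137 and 347 bp per kb, against medians of 14.7 and 29.1 bp over all genes.

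**Figure D4:**
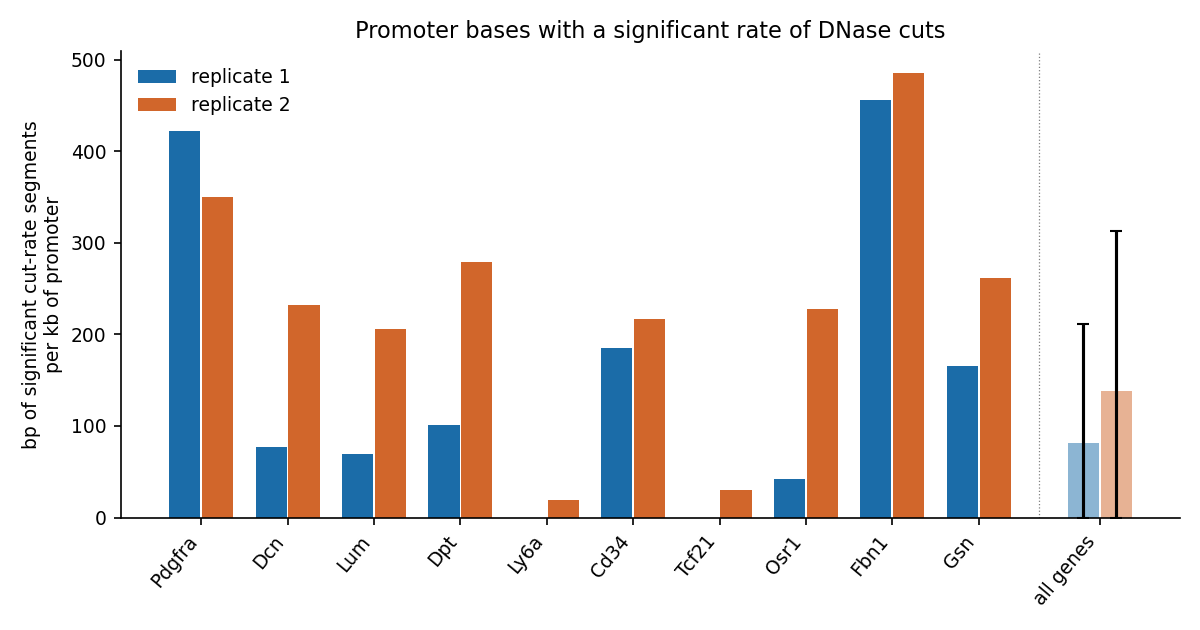
Bases in segments with a significant rate of DNase cuts per kb of promoter (vertical axis, within 1 kb of annotated starts) for each of the 10 genes, in replicate 1 (blue) and replicate 2 (orange). The bars at the right are the medians over all protein-coding genes, with lines from the lower to the upper quartile. Fbn1 and Pdgfra are highest, and Ly6a and Tcf21 have no such bases in replicate 1.

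A smaller share of footprints than of peaks overlapped one of the other library. Footprints are far narrower, at 9 bp, than peaks, at 208 bp (replicate 1) and 160 bp (replicate 2), all as medians. An overlap share depends on width, so the 2 shares do not compare how alike the libraries were. Whether footprints recur less than intervals of equal width was not tested. The 10 windows held 143 footprints of replicate 1 and 266 of replicate 2, and 91.6% and 91.4% of these fell inside peaks of the same library. Of them 51 (35.7%) and 50 (18.8%) overlapped a footprint of the other library. Inside the 52 shared peaks, 37% of the 138 footprints of replicate 1 and 35.2% of the 142 of replicate 2 did so, against 50.8% and 45.9% inside all shared peaks of the genome. Of the 52 shared peaks 40 had a footprint in both libraries and 27 had footprints that overlapped. Each of the 8 genes with a shared peak had at least 1 pair of overlapping footprints. Median footprint width was 9 bp in each library over the whole genome, and the widest footprints of these genes reached 29 bp in replicate 1 and 31 bp in replicate 2, both at Fbn1.

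Sequence motifs were sought by their letters on both strands in 150 bp centred on each shared peak. They were the AP-1 site TGACTCA, the TEAD site GGAATG, the RUNX site TGTGGT, the E-box CAGCTG, the CEBP site TTGCNNAA, the NFI site TTGGCA and the homeodomain site TAATTA. The others were the SP/KLF site GGGCGG, the ETS site CCGGAAG, the GATA site AGATAA, the CCAAT box CCAAT, the TATA box TATAAA and the glucocorticoid receptor site AGAACA. The reverse of CCAAT and the NFI site share letters and can overlap. Of the 37 distal shared peaks the E-box stood in 10 (27.0%), against 24.7% of all 27318 distal shared peaks. The CCAAT box stood in 9 (24.3% against 17.5%), and the NFI and glucocorticoid receptor sites stood in 7 each (18.9%, against 19.6% and 11.4%). TEAD and SP/KLF letters stood in 5 each (13.5%, against 10.6% and 9.40%). AP-1, RUNX and CEBP letters stood in 4 each (10.8%, against 7.63%, 11.0% and 7.32%), and GATA letters in 3 (8.11% against 2.98%). All 4 AP-1 matches within 150 bp lay in the run of Gsn peaks. The AP-1 letters of the Dpt intron 1 peak lie outside its central 150 bp. With 300 bp the AP-1 count was 5 of 37 (13.5%, against 11.7% of all distal shared peaks). Of the 15 promoter peaks 8 held SP/KLF letters (53.3%, against 44.5% of 21842) and 4 the CCAAT box (26.7% against 23.4%). The remaining motifs stood in 3 or fewer peaks of either class. Most of these shares lie near those of all shared peaks, each rests on a few peaks, and a match is a description of the letters only.

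Other genes of the same cells and pathways were counted in the same way. Their windows differ in length, so counts per window do not compare how dense the peaks were. Over all protein-coding genes 60.0% had the promoter call in both libraries, and the median was 2 shared peaks. Of 20 further surface and secreted genes of these cells, 16 had the promoter call in both libraries, and the median was 2.5 shared peaks. The most stood at Smoc2 (9), which encodes a matrix calcium-binding protein, at Col15a1 (6), a basement membrane collagen, and at Clec3b (5), which encodes tetranectin. The fewest stood at Gdf10 (0), Cd55 (1) and Cxcl14 (1). Fibrillar collagens and other small leucine-rich proteoglycans reached 8 of 12, with a median of 1.5. There Col5a1 had 14 shared peaks, Col1a1 and Prelp 7 each, Bgn and Col1a2 1 each and Omd 0. Dcn and Lum, with 1 each, thus lay near the median of the related genes. Per 10 kb of window the median was 0.471 for the surface and secreted genes and 0.316 for the collagens and proteoglycans. It was 0.601 for the 10 genes and 0.325 over all genes.

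Elastic fibre and microfibril genes, the partners of Fbn1, reached 12 of 13 with a median of 5 shared peaks. Ltbp4 had 11, Efemp2 10 and Ltbp2 8, and Efemp1 and Mfap2 had 2 each. Mesenchymal transcription factors reached 14 of 15, also with a median of 5. Ebf1 had 17 and Creb5 16, and Osr2 and Prrx1 had 2 each. PDGF ligands and genes of receptor signalling reached 10 of 10 with a median of 4. The ligand genes Pdgfb and Pdgfa had 11 and 10 and the adaptor gene Shc1 had 9. The ligand gene Pdgfd and the receptor-like gene Pdgfrl had 1 each. Per 10 kb of window the medians were 0.757 for the elastic fibre genes, 0.735 for the factors and 0.469 for the PDGF genes. The PDGF genes thus had more shared peaks per window than the 10 genes, but fewer per 10 kb (0.601 for the 10 genes).

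Markers of other cells of the tissue had peaks as well. Endothelial markers reached 10 of 12 with a median of 3 shared peaks, and Pecam1 had the most with 9 and Emcn the fewest with 0. Mural and smooth muscle markers reached 7 of 10 with a median of 2, and Notch3 had the most with 8, while Acta2 and Tagln had 0. Tendon markers reached 6 of 8 with a median of 2. Macrophage markers reached 2 of 10 with a median of 1, and Fcgr3 had the most with 6, while Adgre1, Itgam and Lyz2 had 0. Per 10 kb the medians were 0.294 for endothelial, 0.354 for mural and smooth muscle, 0.517 for tendon and 0.219 for macrophage markers. Over all genes the median was 0.325. Muscle fibre markers, at 12 of 12 and a median of 15.5, had 3.87 shared peaks per 10 kb, against 0.601 for the 10 fibroblast genes. The part of these other cells in any peak of the 10 genes was not tested.

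**Figure D5:**
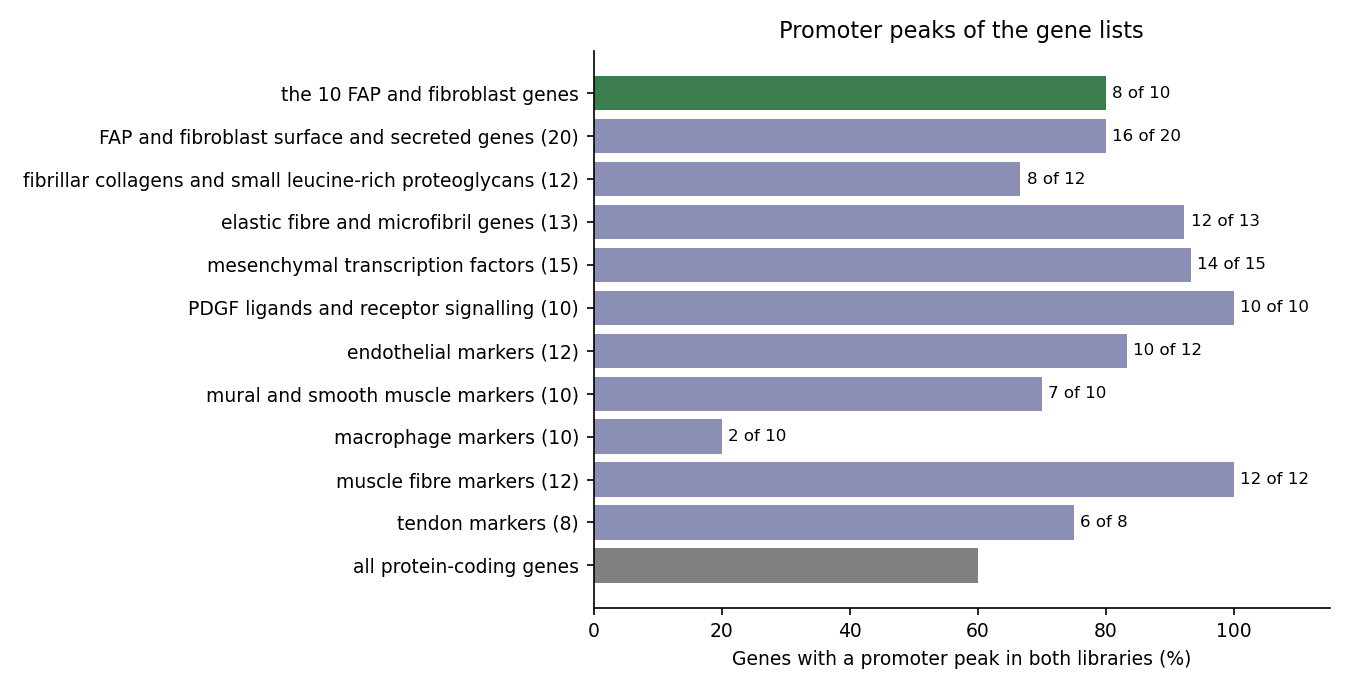
Percentage of genes with a promoter peak in both libraries (horizontal axis) for the 10 fibroblast and progenitor genes (green), for the other gene lists (violet, list size in parentheses) and for all protein-coding genes (grey). The number beside a bar is the count of genes with the call. The 10 genes stand at 8 of 10, macrophage markers lowest at 2 of 10, and all protein-coding genes at 60.0%.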

How the data were processed

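Peak lists, footprints and cut-rate segments from 2 DNase-seq libraries of 1 group were used. Per the labels, positions are on mm10, and per the deposited README files each library's peaks were called separately. Not given in the sources used here are the aligner, the peak caller and the handling of reads that match several places. The authors gave each peak a signal value of unstated scale, and this deposited signal served only to rank peaks within a list. The deposited p-value column held 0.01 for every footprint, and for cut-rate segments it was read as a false discovery rate, with all segments below 0.05. Depth is unknown, so no interval for counting error can be given.

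The longer of each library's 2 peak lists was used. Overlapping peaks (at least 1 bp) of both libraries were merged, and touching runs were joined, into 49160 shared peaks. Midpoints were used because the summit column held 75 in every row. Windows, promoters (1 kb) and introns follow GENCODE M21, and sequences come from GRCm38. RefSeq promoter starts (GRCm38.p6) were found for 6 of the 10 genes. CpG ratios cover 500 bp on each side of the 5′ end. With 1 group and no control, no test was run. The peak-to-gene counting was tested on simulated data.

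The 10 genes, the other lists, the motifs and the alternatives were chosen with earlier results of these data known. All 10 genes are named, and of each list at most 3 genes with the most and the fewest shared peaks, in alphabetical order at ties, not all of which are printed. Sequences are the best shared peak of each gene outside untranslated exons, with at most 300 bases. Lum had none of at least 100 bases. The Dcn sequence is not reported here. Python 3.11.15, numpy 2.4.6, pandas 2.3.3, pysam 0.24.0 and matplotlib 3.10.9 were used.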

Additional observations from a re-analysis of the deposited data

How the results depend on the processing

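The number of genes with a promoter peak in both libraries was 8, and 5 with the shorter peak lists, where Dpt, Lum and Osr1 lost the call. It was 6 with the stronger 50% of each list (without Lum and Osr1) and 7 with promoters of 500 bp or with equal numbers of strongest peaks (without Lum). Leaving out a library gave 8 to 9. The median of 3 shared peaks per window became 1 with the shorter lists and 1.5 with the stronger 50%, and leaving out a library, where every peak of the other counts, gave 3 to 7.5. The 52 shared peaks became 29 with the shorter lists and 30 with the stronger 50%, and 65 to 160 with a library left out. The distal share of 71.2% became 60.0% with the stronger 50% and lay between 70.8% and 79.4% with a library left out. Gene by gene, under the alternatives that can change a window count, 51 of 80 counts stayed within 1.5 times and 29 moved further. For motif counts in other window lengths 38 of 52 stayed. Counts that stayed at 0, as at Ly6a and Tcf21 and for the ETS letters, are among those that stayed. These tallies therefore do not measure how stable the other counts are. The causes of the changes were not tested. No paired analysis was possible because the study has 1 group and no test. With unknown depth, a missing peak in replicate 1 does not show closed chromatin.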
